A study of Saccharomyces cerevisiae with 14 samples.

Results

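The 10 genes described here are iron uptake and transport genes of budding yeast, Saccharomyces cerevisiae, that are listed as controlled by the transcription factor Aft1: FIT1, FIT2, FIT3, SIT1, ARN1, ARN2, FRE2, FET3, FTR1 and MRS4. They were taken as every probe set of the array that is annotated to one of these names, which gave 1 probe set for each of the 10, out of 5656 genes that the array can read alone. All 10 were bright enough to be tested. The array, Affymetrix YG_S98, reports for each probe set a signal in arbitrary units that is scaled to the brightness of the whole array, so a change in the amount of RNA per cell cannot be seen in it.

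There were 14 arrays of total RNA from cells in mid-log growth. In 4 arrays, H3del, the cells carried a histone H3 without residues 1 to 28, and 4 arrays, H3WT, came from the strain with the whole H3. In 3 arrays, H4del, the cells carried a histone H4 without residues 2 to 26, and H4WT, with 3 arrays, is the strain that kept the whole H4. In both H3 strains the histones were on a plasmid marked with LEU2 and the synthetic medium had no leucine or uracil, and in both H4 strains the plasmid was marked with TRP1 and the medium had no tryptophan or uracil. The strains are described as congenic, and no source used here gives the iron content of the media. Whether each array had a culture of its own is not stated, so p-values speak only of the spread from array to array, which could be technical. Their number, 3 or 4 a group, limits the precision of every value.

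Aft1 and its relative Aft2 switch on iron uptake when the cell is short of iron, and are held inactive by a signal that depends on iron-sulfur clusters made in the mitochondria. Iron enters by different routes. In the reductive route a surface reductase such as Fre2 reduces ferric iron, and the oxidase Fet3 and the permease Ftr1 take it in as a pair. In the other route the Arn transporters import siderophores, the small iron carriers that microbes release, and Fit1, Fit2 and Fit3 are cell wall mannoproteins that help to hold siderophore iron near the cell. Mrs4 carries iron into the mitochondria.

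The arrays were hybridized on 5 days. Day 1 held replicates 1 and 2 of H3del and H3WT, day 2 held H4del replicates 1 and 2 and H4WT replicate 1, and day 3 held H4WT replicate 2 alone. Day 4 held replicate 3 of each group, and day 5 held replicate 4 of H3del and H3WT. The dimmest signals were not equal between groups: the 10th percentile of an array lay between 16.8 and 17.8 in H3del against 12.1 and 12.9 in H3WT, and between 22.7 and 27.8 in H4del against 12.1 and 20.1 in H4WT. RNA quality was read from probe sets at both ends of a transcript. For TBP the 3 prime signal over the 5 prime signal lay between 3.84 and 4.94 in H3del against 1.3 and 4.2 in H3WT, and between 3.21 and 4.68 in H4del against 2.68 and 3.2 in H4WT. For actin it lay between 1.54 and 2.89 in H3del against 1.56 and 2.15 in H3WT, and between 1.54 and 1.99 in H4del against 1.48 and 1.82 in H4WT. Of 4 marker genes of haploid alpha cells 3 fell in H3del (MF(ALPHA)2, STE3 and SAG1), where 2.46% of all tested probe sets fell, and all 4 fell in H4del, where 9.67% did. MF(ALPHA)2 averaged 292 in H3del against 3707 in H3WT and 233 in H4del against 4689 in H4WT, while MF(ALPHA)1, an alpha pheromone gene, was at 16790 in H3del against 19750 in H3WT. Of 4 markers of haploid a cells 3 were tested, none passed in H3del and MFA1 rose in H4del (1.25 ± 0.35, adjusted p = 0.0245 in limma), where 7.79% of all tested probe sets rose. MFA1 had 0.93 ± 0.30 in H3del (adjusted p = 0.0817), from a probe set that the array design marks as shared in a gene family, and BAR1 passed for the H3del effect minus the H4del effect (2.14, adjusted p = 0.0419). BAR1 had 1.02 ± 0.36 in H3del (adjusted p = 0.111 in limma) and -1.13 ± 0.41 in H4del (0.0736), the direction opposite to MFA1 there. MFA2 had 0.16 in H3del and 0.06 in H4del. The part of these differences in the results below was not tested.

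The comparison of H3del with H3WT asked how the iron genes stood when the H3 tail was missing. In limma, with Benjamini-Hochberg adjustment over 6492 tested probe sets and a threshold of 0.05, 4 of the 10 genes rose (FIT1, FIT3, SIT1 and FRE2), 1 fell (MRS4) and 5 did not pass. Of all tested probe sets 5.21% rose and 2.46% fell, which is 7.67% in either direction. The 10 genes were chosen with earlier results of these data known, so these shares stand beside them as a description and test nothing. The median log2 fold change of the 10 genes was 0.52, and that of all tested probe sets was 0.02. The genes that rose were 2 of the 3 cell wall mannoprotein genes, 1 of the 3 siderophore transporter genes and the reductase gene, and neither gene of the Fet3-Ftr1 pair was among them.

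**Figure D1:**
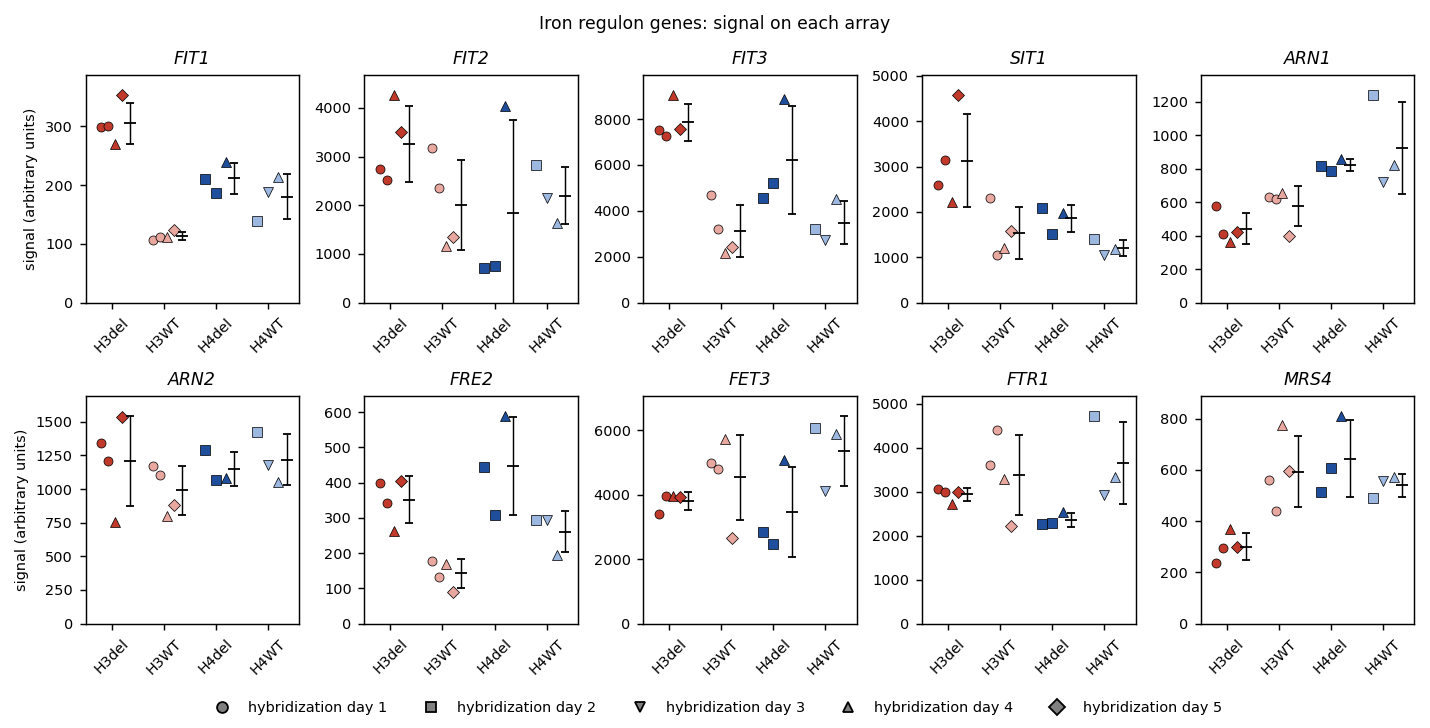
Signal of each iron gene on each of the 14 arrays, in arbitrary units from 0, by group (H3del, H3WT, H4del, H4WT); the marker shape gives the hybridization day, and the bar beside each group is the mean with 1 SD, which runs below 0 for FIT2 in H4del. FIT1 lies between 269.6 and 353.2 in H3del and between 107.0 and 123.3 in H3WT, while MRS4 is lower in H3del than in the other groups, and FIT2 in H4del splits into a pair of arrays at 716.1 and 742.9 and 1 array at 4044.2.

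Among the cell wall mannoproteins, FIT1 had signals of 299.0, 300.7, 269.6 and 353.2 on H3del replicates 1 to 4, against 107.0, 111.0, 112.2 and 123.3 on those of H3WT. The groups did not overlap, and the H3WT arrays lay close together. The mean was 306 ± 34.8 (SD, n = 4) in H3del against 113 ± 6.98 (SD, n = 4) in H3WT, a log2 fold change of 1.30 ± 0.18 (SE), or 2.47-fold, with a limma adjusted p of 0.00023. FIT3 had 7537.8, 7276.9, 9041.8 and 7589.0 in H3del, against 4693.9, 3226.2, 2144.2 and 2418.5 in H3WT. Every H3del array of FIT3 was above every H3WT array, and the spread was wider in H3WT. Its log2 fold change was 1.39 ± 0.25, or 2.62-fold (adjusted p = 0.00219 in limma).

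FIT2, which lies next to FIT3 on chromosome XV, had 2748.2, 2524.7, 4259.7 and 3494.4 in H3del, against 3165.9, 2350.0, 1162.5 and 1350.2 in H3WT. The groups overlapped, because H3WT replicate 1 was above H3del replicates 1 and 2. The log2 fold change was 0.78 ± 0.46, with a 95% confidence interval from -0.19 to 1.75, and did not pass (adjusted p = 0.378 in limma). Within the days the difference was -0.05 on day 1, 1.86 on day 4 and 1.36 on day 5, so the FIT2 value rests on the later days. For FIT3 it was 0.93, 2.07 and 1.64 on the same days, and for FIT1 1.33, 1.15 and 1.40, above 0 on each.

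Of the siderophore transporters, SIT1, which takes up ferrioxamine B, had 2590.7, 3152.8, 2213.3 and 4573.6 in H3del, against 2313.1, 1037.8, 1199.6 and 1587.8 in H3WT. The groups overlapped by 1 pair of arrays, H3del replicate 3 and H3WT replicate 1. The log2 fold change was 1.04 ± 0.26, or 2.05-fold (adjusted p = 0.0192 in limma). This call was lost in 4 of the 8 fits that left out 1 array, those without H3del replicate 2 (1.01, adjusted p = 0.0553), H3del replicate 4 (0.84, 0.0734), H3WT replicate 2 (0.87, 0.0758) and H3WT replicate 3 (0.94, 0.0571). Within the days SIT1 was higher in H3del by 0.87, 0.87 and 1.52.

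The other transporter genes did not pass. ARN1, whose product imports ferrichromes, had 574.7, 407.4, 362.4 and 423.7 in H3del, against 631.5, 621.0, 656.1 and 400.0 in H3WT, a log2 fold change of -0.37 ± 0.21 with an interval from -0.82 to 0.08 (adjusted p = 0.370 in limma). H3del was lower on day 1 (-0.36) and day 4 (-0.83) and about level on day 5 (0.08), the day of the low H3WT array. ARN2, whose product imports triacetylfusarinine, had 1339.5, 1207.3, 751.7 and 1532.6 in H3del, against 1172.9, 1107.7, 797.2 and 880.5 in H3WT. Its log2 fold change was 0.25 ± 0.21 with an interval from -0.20 to 0.71 (adjusted p = 0.579 in limma), and in both groups the array of day 4 was the lowest.

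In the reductive route the genes differed. FRE2, the ferric reductase gene, had 398.5, 342.8, 261.8 and 405.3 in H3del, against 179.0, 133.5, 168.4 and 89.4 in H3WT, without overlap. Its log2 fold change was 1.23 ± 0.25, or 2.35-fold (adjusted p = 0.00527 in limma), with 1.17, 0.59 and 1.99 within days 1, 4 and 5. FET3, the oxidase gene, had 3401.7, 3952.9, 3954.8 and 3921.8 in H3del, against 4993.0, 4787.3, 5728.8 and 2645.4 in H3WT. Of the H3WT arrays 3 were above all of H3del and replicate 4 was below all of it.

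The log2 fold change of FET3 was -0.20 ± 0.25, with an interval from -0.73 to 0.33 (adjusted p = 0.733 in limma), so a rise of the size seen for FIT1, FIT3 or FRE2 lay outside it. FTR1, the permease gene, had 3061.7, 2994.3, 2725.0 and 2992.9 in H3del, against 3601.6, 4409.1, 3280.3 and 2212.0 in H3WT, the same pattern with the same low array. Its log2 fold change was -0.16 ± 0.20, with an interval from -0.58 to 0.27 (adjusted p = 0.739 in limma). Within the days FET3 was -0.41, -0.53 and 0.57 and FTR1 -0.39, -0.27 and 0.43, negative on days 1 and 4 and positive on day 5.

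MRS4, the mitochondrial iron carrier gene, was the member that fell. It had 237.6, 296.4, 369.1 and 300.2 in H3del, against 561.4, 440.6, 775.3 and 596.4 in H3WT, without overlap. The mean was 301 ± 53.8 in H3del against 593 ± 138 in H3WT (SD, n = 4 each), a log2 fold change of -0.93 ± 0.20 (adjusted p = 0.00838 in limma), or 1.91-fold lower. The difference was -0.87, -1.04 and -0.95 within days 1, 4 and 5. MRS3, the paralog of MRS4 with the same function, had -0.32 ± 0.27 (adjusted p = 0.585).

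Counted by overlap, 4 of the 10 genes (FIT1, FIT3, FRE2 and MRS4) had no overlap between H3del and H3WT arrays, against 14.8% of all tested probe sets. The 5 calls also stood with the hybridization day as a block, where 20.6% of all tested probe sets passed (11.3% higher and 9.33% lower). They stood with each same-number pair of a deletion and its wild type as a block too, where 16.1% passed (9.53% higher and 6.59% lower).

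The H4 tail was examined by setting H4del against H4WT. None of the 10 genes passed in limma, where 17.5% of all tested probe sets did (7.79% higher and 9.67% lower), and 4 of the 10 (FIT3, FRE2, FET3 and FTR1) had an unadjusted p under 0.05, as had 31.4% of all tested probe sets. The median log2 fold change was 0.07 for the 10 genes and -0.08 for all tested probe sets. The nearest to the threshold was FIT3, with 4552.4, 5219.5 and 8898.0 on H4del replicates 1 to 3, against 3205.4, 2735.4 and 4515.6 on those of H4WT. Each H4del array was above every H4WT array, though replicates 1 of H4del and 3 of H4WT were close. The log2 fold change was 0.80 ± 0.29 (adjusted p = 0.0698 in limma).

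FTR1 had 2257.2, 2289.0 and 2530.0 in H4del, against 4717.5, 2916.7 and 3333.9 in H4WT, without overlap, and FET3 had 2839.4, 2482.7 and 5077.4 in H4del, against 6072.3, 4113.5 and 5877.0 in H4WT. The FET3 groups overlapped through H4del replicate 3. The log2 fold changes were -0.60 ± 0.23 for FTR1 (adjusted p = 0.0844 in limma) and -0.68 ± 0.29 for FET3 (adjusted p = 0.120). With the day as a block FIT3 (0.76 ± 0.25, adjusted p = 0.0334), FET3 (-0.77 ± 0.25, 0.0349) and FTR1 (-0.77 ± 0.21, 0.0151) passed, in a fit where 29.8% of all tested probe sets passed (12.5% higher and 17.3% lower). With the same-number pairs as blocks these 3 genes passed too (adjusted p = 0.0180, 0.0381 and 0.0390 in limma), where 32.8% passed (14% higher and 18.8% lower). H4WT replicate 2, alone on its day, adds nothing to the values with the day block.

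FIT2 had 716.1, 742.9 and 4044.2 in H4del, against 2818.7, 2138.0 and 1636.6 in H4WT. The arrays of day 2, H4del replicates 1 and 2, were below all of H4WT, and the array of day 4 was above all of it. The log2 fold change was -0.72 ± 0.53 (adjusted p = 0.376 in limma), with -1.93 within day 2 and 1.30 within day 4. Without H4del replicate 3 FIT2 (-1.53, adjusted p = 0.0182) and FET3 (-0.99, 0.0329) passed, and without H4WT replicate 3 FIT3 passed (1.00, 0.0306). H4del replicate 3 was the highest array of its group for each of the 10 genes except ARN2 and SIT1.

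SIT1 had 2075.6, 1520.4 and 1965.6 in H4del, against 1390.8, 1045.9 and 1185.3 in H4WT, without overlap, and FRE2 had 444.9, 308.7 and 588.1 in H4del, against 295.2, 293.8 and 194.5 in H4WT, also without overlap. Their log2 fold changes were 0.61 ± 0.30 (adjusted p = 0.172) and 0.72 ± 0.29 (adjusted p = 0.0999 in limma). The other 4 genes lay closer to 0. FIT1 had 0.22 ± 0.21, MRS4 0.23 ± 0.23, ARN2 -0.08 ± 0.25 and ARN1 -0.13 ± 0.24, with adjusted p between 0.498 and 0.858 in limma. Counted by overlap, 4 of the 10 genes (FIT3, SIT1, FRE2 and FTR1) had none between the arrays of H4del and H4WT, where 33.3% of all tested probe sets had none.

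Transcripts of the mitochondrial genome stood apart on the same arrays. OLI1, an ATP synthase subunit, had 4.0, 1.9 and 1.1 on the H4del arrays, against 6413.6, 1173.7 and 9736.8 on those of H4WT, and COX1, a cytochrome oxidase subunit, had 4.8, 4.1 and 4.6 in H4del against 1893.6, 1181.2 and 4288.6 in H4WT. The H3 strains had 1485.2 to 7071.2 of OLI1 in H3del against 1155.8 to 7716.9 in H3WT. Of the 8 mitochondrial genes listed, OLI1 and COX1 were tested, and 6 were below the brightness filter. The H4 tail and the lack of these transcripts cannot be told apart in H4del, and the part of either in the iron gene values was not tested.

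**Figure D2:**
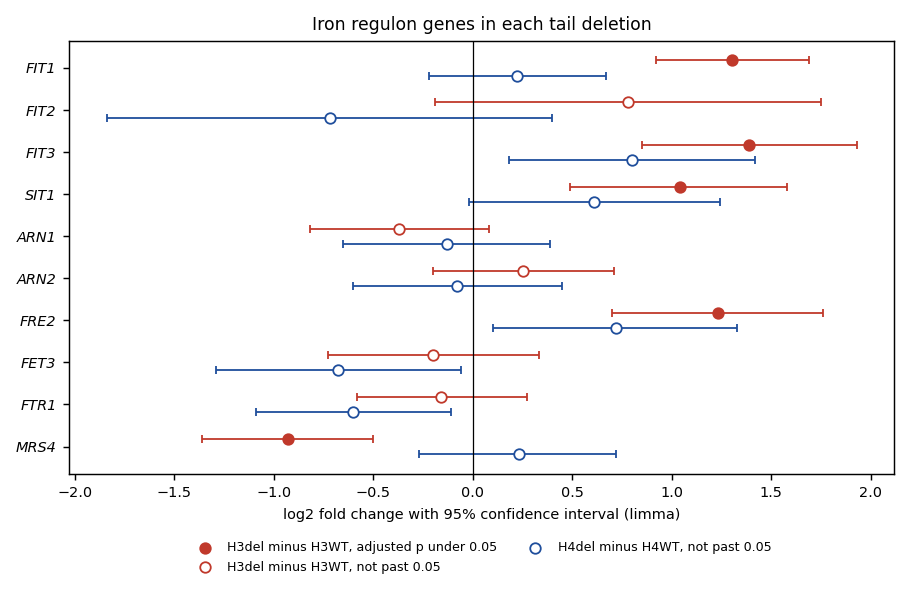
Log2 fold change of each iron gene in H3del over H3WT (upper point of each pair) and H4del over H4WT (lower point), with 95% confidence intervals from limma; filled points have an adjusted p under 0.05. FIT1, FIT3, SIT1, FRE2 and MRS4 are filled for H3del and no gene is filled for H4del, and the intervals of FIT1 and of MRS4 for the deletions do not meet.

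Whether the effects differed between the tails was tested directly. The difference, the H3del effect minus the H4del effect, passed for 1 of the 10 genes, against 3.68% of all tested probe sets (2.4% above 0 and 1.28% below). It was FIT1, with 1.08 ± 0.28 (adjusted p = 0.0419 in limma), on signals of 209.9, 186.0 and 239.3 in H4del and 139.2, 188.7 and 213.5 in H4WT beside those above. The call was lost in 10 of the 14 fits that left out 1 array, each of H3del replicates 1, 2 and 4, H3WT replicates 1, 2 and 3, H4del replicates 1 and 2 and H4WT replicates 2 and 3, with values from 0.96 to 1.24 over the 14. It was also lost after quantile normalization (0.99, adjusted p = 0.0526).

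MRS4, with 515.4, 606.8 and 809.1 in H4del and 488.6, 557.8 and 571.7 in H4WT, had a difference of -1.16 ± 0.31 at an adjusted p of 0.05002 in limma, and so just missed the threshold. With the day as a block it passed (-1.25 ± 0.23, adjusted p = 0.00480), and with the same-number pairs as blocks, the replicate block, too (-1.16 ± 0.23, 0.00895). In those fits 16.6% of all tested probe sets passed with the day block (10.5% above 0 and 6.15% below) and 16.3% with the replicate block (10.3% above and 5.93% below). FIT2 had 1.5 ± 0.70 (adjusted p = 0.242 in limma), and 2.31 (adjusted p = 0.0168) without H4del replicate 3. For FIT3, SIT1 and FRE2, which rose in H3del and not in H4del by the threshold, the differences were 0.59 ± 0.39, 0.43 ± 0.39 and 0.51 ± 0.38 and did not pass (adjusted p between 0.412 and 0.573 in limma).

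**Figure D3:**
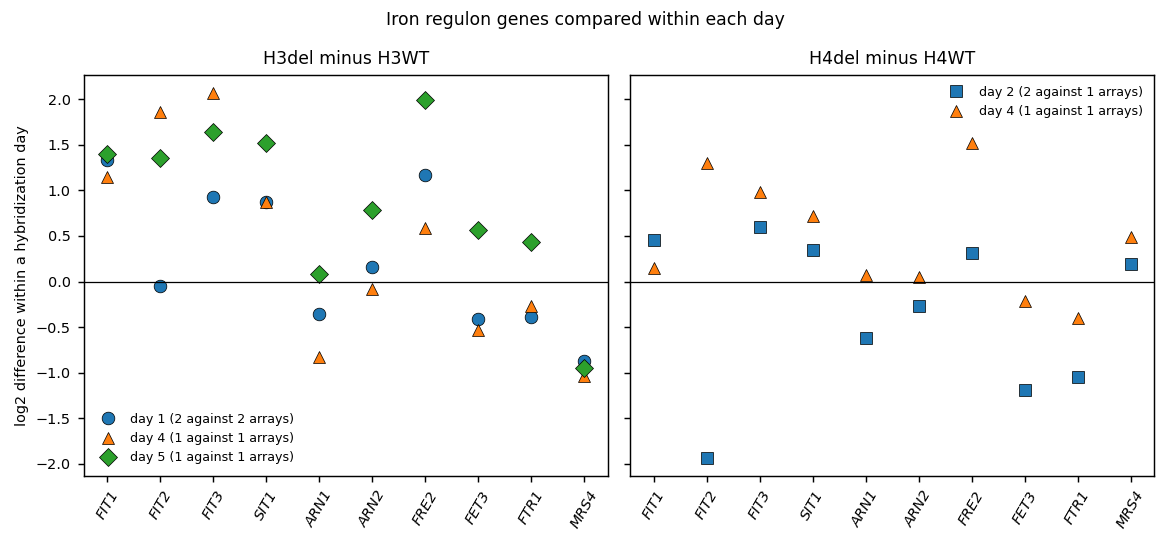
Log2 difference of each iron gene within each hybridization day that held both groups, for H3del minus H3WT (left, 3 days) and H4del minus H4WT (right, 2 days); each point is a difference of array means with no test. FIT1, FIT3, SIT1 and FRE2 lie above 0 and MRS4 below 0 on all 3 days of the H3 strains, and FIT2 lies at -1.93 and 1.30 on the days of the H4 strains.

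The wild types differ in plasmid marker and in the amino acid left out of the medium. None of the 10 genes passed for H3WT against H4WT in limma, where 3.4% of all tested probe sets did (1.23% higher and 2.17% lower in H3WT), and 3 had an unadjusted p under 0.05, as had 16.1% of all tested probe sets. These were FIT1 (-0.58 ± 0.20, adjusted p = 0.135), ARN1 (-0.66 ± 0.23, 0.150) and FRE2 (-0.82 ± 0.27, 0.127), each lower in H3WT and without overlap between the arrays, where 13.6% of all tested probe sets had none. ARN1 had 1240.2, 721.4 and 820.6 in H4WT beside its H3WT signals given above. Within day 4, which held 1 array of each wild type, the values were -0.84 for FIT1, -0.32 for ARN1 and -0.19 for FRE2. With the replicate number as a block FIT1 passed (-0.63, adjusted p = 0.0494), where 7.87% of all tested probe sets did (4.07% lower in H3WT).

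Ordered by mean signal over the 4 groups, FIT1 ran 306 in H3del, 212 in H4del, 181 in H4WT and 113 in H3WT, with the ranges of H4del and H4WT overlapping. FRE2 ran 447 in H4del, 352 in H3del, 261 in H4WT and 143 in H3WT, the ranges of H4del and H3del overlapping, and also those of H3del and H4WT. H3WT was lowest for both genes, without overlap with H4WT. For MRS4 the order was 644 in H4del, 593 in H3WT, 539 in H4WT and 301 in H3del, and H3del alone stood below the overlapping ranges of the rest. For FIT3 it was 7861 in H3del, 6223 in H4del, 3485 in H4WT and 3121 in H3WT, with overlap in each neighbouring pair except H4del and H4WT.

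Other genes of the pathway were read from lists chosen by function. Of 22 further genes controlled by Aft1 or Aft2, 20 had a probe set of their own and 18 were tested, and in H3del 2 rose and 1 fell, beside 5.21% and 2.46% of all tested probe sets, with a median log2 fold change of -0.07. FRE4, another reductase gene, rose (0.92 ± 0.27, adjusted p = 0.0466 in limma), with 342.9, 397.4, 177.5 and 338.2 in H3del against 119.5, 181.6, 167.8 and 143.6 in H3WT. BIO5, a gene of biotin precursor uptake, rose (1.07 ± 0.17, adjusted p = 0.000915), with 205.7 to 251.4 in H3del against 84.6 to 109.3 in H3WT. It had 192.4 to 246.7 in H4del and 198.5 to 240.1 in H4WT, so H3WT was the group that stood apart. The H3del effect minus the H4del effect passed for BIO5 (1.11, adjusted p = 0.0288 in limma), where 2.4% of all tested probe sets were above 0. AKR1, a palmitoyl transferase, fell (-0.83 ± 0.17, adjusted p = 0.00548).

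TIS11, also called CTH2, encodes a protein that directs the decay of mRNAs of iron-using proteins when iron is short. It was too dim over all arrays for the test, and had 30.4, 40.9, 121.0 and 59.5 in H3del, against 234.2, 138.5, 368.7 and 192.2 in H3WT. The H3del arrays were all below the H3WT arrays, and in the fit without a brightness filter the log2 fold change was -1.69 ± 0.34 (adjusted p = 0.00532 in limma). In H4del it had 168.3, 161.7 and 137.4, against 98.7, 109.9 and 198.0 in H4WT, with overlap. The difference from the H4del effect was -1.92 in that fit and did not pass (adjusted p = 0.0604).

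The genes of the Aft1 and Aft2 list named next did not pass in H3del. FET5 and FTH1, the pair at the vacuole membrane, had -0.23 ± 0.17 and -0.25 ± 0.15 (adjusted p = 0.526 and 0.401 in limma). FRE1, the main surface reductase gene, had -0.16 ± 0.24, the copper pump gene CCC2, which supplies Fet3 with copper, 0.07 ± 0.19, and the heme oxygenase gene HMX1 -0.50 ± 0.23, with adjusted p between 0.245 and 0.884. ENB1, the enterobactin transporter gene, had -0.69 ± 0.28 in H3del (adjusted p = 0.178). It was the 1 gene of this list that fell in H4del (-1.63 ± 0.32, adjusted p = 0.00427 in limma), with 1424.5, 1270.6 and 1060.6 against 5442.0, 4653.1 and 2284.8 in H4WT, and no gene of the list rose there, beside 9.67% of all tested probe sets that fell and 7.79% that rose.

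**Figure D4:**
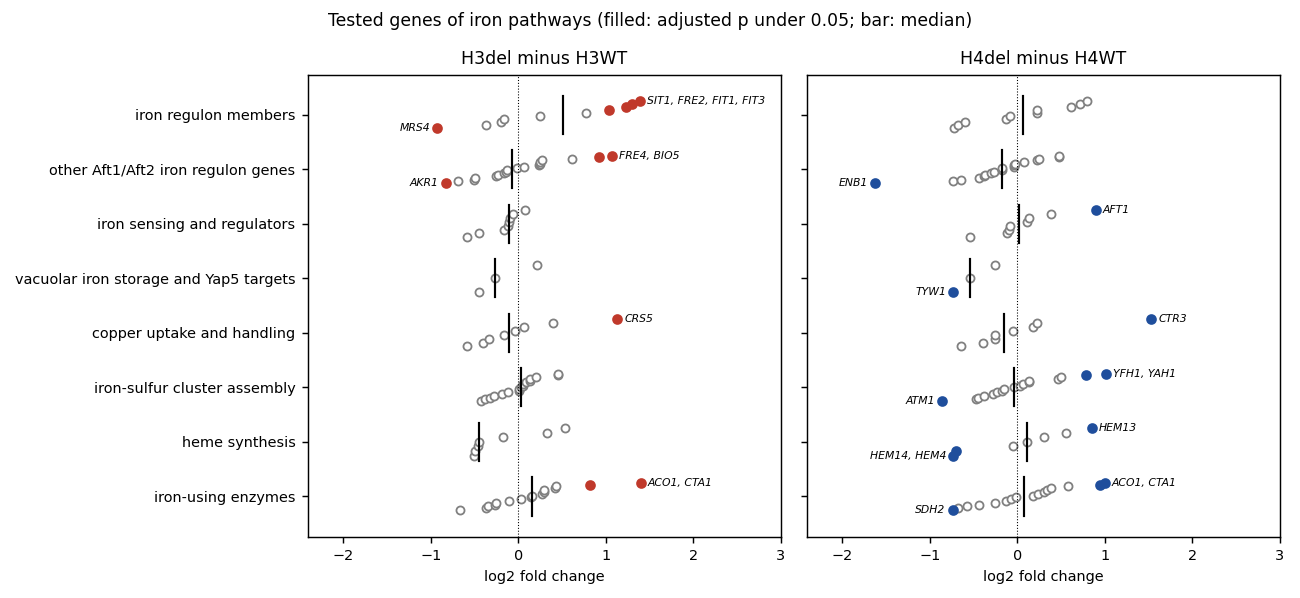
Log2 fold change of the tested genes of each iron-related list in H3del over H3WT (left) and H4del over H4WT (right); each point is a gene, filled where the adjusted p is under 0.05, with the names of filled genes beside them from low to high, and the black bar is the list median. In H3del the members reach a median of 0.52, and the other lists lie between -0.45 and 0.16.

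Of 8 genes of iron sensing and regulation none passed in H3del and 1 in H4del, where 7.67% and 17.5% of all tested probe sets did. AFT1 itself had -0.12 ± 0.19 in H3del (adjusted p = 0.800) and rose in H4del (0.90 ± 0.22, adjusted p = 0.0138 in limma), with 920.3, 711.5 and 658.7 against 520.5, 282.2 and 427.5 in H4WT. AFT2, YAP5, GRX3, GRX4, BOL2, FRA1 and CTH1 passed in neither. Of 3 tested genes of vacuolar storage and the Yap5 response none passed in H3del, where 7.67% of all tested probe sets did. TYW1 fell in H4del (-0.73 ± 0.23, adjusted p = 0.0388 in limma), where 9.67% of all tested probe sets fell. Among 8 tested copper genes CRS5, a metallothionein gene, rose in H3del (1.13 ± 0.22, adjusted p = 0.00437 in limma), where 5.21% of all tested probe sets rose. CTR3, a copper transporter gene, rose in H4del (1.53 ± 0.38, 0.0142 in limma), where 7.79% rose. FRE7 of the same list was too dim for the test. In the fit without a brightness filter it had 0.71 ± 0.21 in H3del (adjusted p = 0.0488 in limma) and 1.06 ± 0.24 in H4del (0.00931).

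Of 17 genes of iron-sulfur cluster assembly none passed in H3del, where 7.67% of all tested probe sets did. For H4del 3 passed, near the 17.5% of all tested probe sets. In H4del YAH1, a ferredoxin gene (1.01 ± 0.32, adjusted p = 0.0416), and YFH1, the frataxin gene (0.78 ± 0.21, 0.0183 in limma), rose, and ATM1, which encodes the exporter of the mitochondrial signal to the cytosol, fell (-0.86 ± 0.21, 0.0138). For ATM1 the H3del effect minus the H4del effect passed as well (1.30, adjusted p = 0.0192 in limma). Of 7 tested heme synthesis genes none passed in H3del, where 7.67% of all tested probe sets did. In H4del HEM13 rose (0.85 ± 0.27) and HEM4 (-0.70 ± 0.21) and HEM14 (-0.73 ± 0.19) fell. There 7.79% of all tested probe sets rose and 9.67% fell. HEM14 also passed for the difference between the tails (1.27, adjusted p = 0.0138 in limma).

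Of 16 genes of iron-using enzymes 2 rose and 0 fell in H3del, beside 5.21% and 2.46% of all tested probe sets. In H4del 2 rose and 1 fell, beside 7.79% and 9.67%. ACO1, the aconitase gene, rose in both deletions, with 9116.2 to 12255.1 in H3del against 4438.5 to 7488.3 in H3WT (0.82 ± 0.17, adjusted p = 0.00566 in limma) and 12372.6 to 13472.2 in H4del against 5316.4 to 8022.3 in H4WT (0.95 ± 0.20, 0.00511). CTA1, the peroxisomal catalase gene, also rose in both, by 1.40 ± 0.25 and 1.00 ± 0.28. SDH2, a succinate dehydrogenase gene, fell in H4del (-0.74 ± 0.21, adjusted p = 0.0253). Between the wild types BIO5 was lower in H3WT (-1.07, adjusted p = 0.00360), and YFH1 (0.77), HEM12 (0.71), SDH2 (0.96) and SDH4 (0.79) were higher in H3WT, with adjusted p between 0.0105 and 0.0368 in limma. Of all tested probe sets 1.23% were higher and 2.17% lower in H3WT.

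The 10 genes do not lie alike on the chromosomes. In the order of annotated genes, 7 of them are within 14 genes of a chromosome end: FRE2 is number 4 from the left end of chromosome XI, ARN2 number 5 and ARN1 number 12 from the left end of VIII, FIT1 number 8 from the right end of IV, SIT1 number 13 from the left end of V, and FIT3 and FIT2 numbers 13 and 14 from the right end of XV. FTR1 (number 56 from the right end of V), MRS4 (number 58 from the right end of XI) and FET3 (number 216 from the left end of XIII) lie further in. All 4 genes that rose in H3del were among the 7, and MRS4 was among the other 3. The limit of 14 was set from the 7 genes themselves, so this is a description. Of all 240 tested genes within 14 of an end 48 rose (20%) and 7 fell (2.92%) in H3del, against 177 (3.63%) and 126 (2.58%) of the 4879 further in. In H4del 9.17% rose and 12.9% fell within 14 of an end, against 4.30% and 10.9% further in.

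The genes on either side of the 7 were read as well. Of 12 such genes that are not members, 7 were tested, 3 were too dim and 2 had no probe set of their own, and in H3del 4 rose and 1 fell, beside the 20% and 2.92% of all tested genes that near to an end. HPA3 (0.93 ± 0.27, adjusted p = 0.0466) and AVT2 (0.87 ± 0.25, 0.0445 in limma) on either side of SIT1 rose with it. COS8 (1.08 ± 0.20) and PAU13 (0.87 ± 0.19) beside ARN2 rose where ARN2 did not pass. The array design marks the probe sets of COS8 and PAU13 as not wholly unique, so they may also read other members of the COS and PAU families. COS9 beside FRE2 fell (-0.94 ± 0.21, adjusted p = 0.0119 in limma) where FRE2 rose. MCH2 on the other side of FRE2, too dim for the test, averaged 110 in H3del against 61.0 in H3WT without overlap, with 0.71 ± 0.18 in H3del (adjusted p = 0.0221) and 1.34 ± 0.20 in H4del (0.000801) in the fit without a filter. STL1 beside FIT1, a glycerol transporter gene too dim for the test, had 122.5 to 134.1 in H3del against 26.6 to 39.6 in H3WT, and 1.58 ± 0.19 in the fit without a filter. HSP31 on the other side of FIT1 had 0.49 ± 0.21 (adjusted p = 0.191 in limma). EFM1 beside ARN1 had -0.18 ± 0.21 (adjusted p = 0.715), and in H4del COS8 rose (1.5 ± 0.23). Of the 5 tested neighbours of FET3, FTR1 and MRS4, YSR3 beside MRS4 rose in both deletions (0.98 ± 0.23 and 1.38 ± 0.26). Of all tested genes further in 3.63% rose in H3del and 4.3% in H4del. AAC1, SEN15, UBP5 and HFL1 passed in neither.

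Arrays of the same group also differed among themselves, and some iron genes did so together. After the group means were taken out, the median of Pearson's r over the 45 pairs of iron genes and 14 arrays was 0.22, with 39 pairs above 0, beside a median of 0.03 over all pairs of tested probe sets. With the day also taken out, which leaves 6 degrees of freedom, it was 0.31 beside 0.02. These are descriptions, since arrays of a day share their hybridization. FET3 and FTR1 had 0.66 with the group means out and 0.87 with the day out as well. FIT2 and FIT3, neighbours on the chromosome, had 0.76 and 0.74. ARN1, ARN2, FRE2, FET3 and FTR1, grouped here after their values were seen, had 0.65 to 0.92 with each other with the day out, whereas FIT1 had -0.73 with FIT2 and -0.57 with FIT3. With only the group means out, the grouped genes ran from 0.0 (ARN2 with FET3) to 0.83 (ARN1 with FTR1). Every pair of them but ARN2 with FET3 was then at 0.46 or above. FIT1 then had 0.04 with FIT2 and 0.17 with FIT3, so its negative values with these genes appear only with the day out. MRS4 had between -0.43 and 0.52 with the other 9 genes with the day out.

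**Figure D5:**
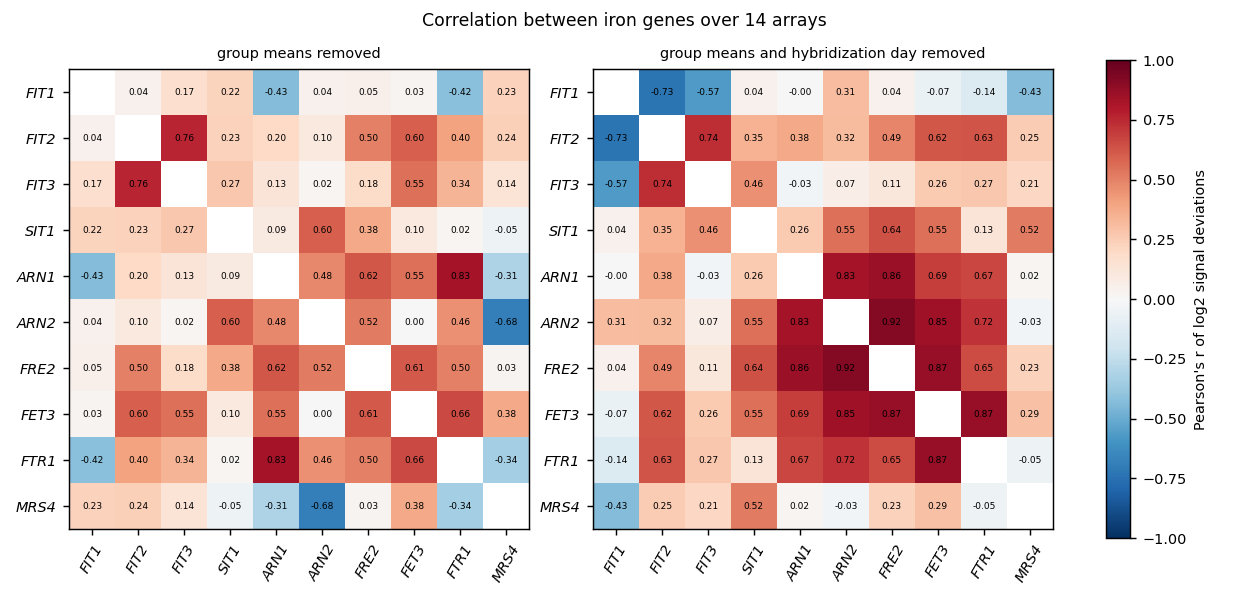
Pearson's r between iron genes over 14 arrays, from log2 signals with the group means taken out (left) and with the hybridization day taken out too (right); red is positive and blue negative. ARN1, ARN2, FRE2, FET3 and FTR1 form a red block on the right, and FIT1 is blue against FIT2 at -0.73. On the left the same genes run from 0.0 to 0.83 with each other, at 0.46 or above except ARN2 with FET3. There FIT1 has 0.04 with FIT2.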

How the data were processed

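The deposited values are array signals, a linear intensity per probe set. The submitters' processing notes name MAS5 and the sources used here give no version of it. The 2% trimmed means of the arrays lay between 1500.83 and 1501.18, so the values were not rescaled. Of 9335 probe sets, 60 controls were left out. Before log2 was taken each value was raised by 16.9, the 10th percentile over the arrays, which understates changes of dim genes. Probe sets with a mean log2 signal above the 30th percentile were tested, 6492 in all. Fits were made in R 4.3.3 by limma 3.58.1 (lmFit, and eBayes allowing a trend), and 4 group means left 10 residual degrees of freedom. Tables and figures used python 3.11.15, numpy 2.4.6, pandas 2.3.3 and matplotlib 3.10.9.

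The probe sets were named by the platform annotation, with symbols updated through RefSeq R64, which also gave the order of genes. Of a gene's probe sets the brightest was used. The report names the 10 members and the genes of each list past the threshold (up to 6 for a list and contrast), with the gene on either side of each member. TIS11, MRS3, the other genes given without a call and MF(ALPHA)2 were chosen after their values were seen. The members and lists were chosen with earlier results of these data known.

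Hybridization days, per the file headers, entered a fit as blocks, which left 6 residual degrees of freedom. Deviations from the group means correlated between 0.263 and 0.638 in the 7 same-number pairs of a deletion and its wild type and between 0.268 and 0.501 in the 3 of the wild types. Of all these pairs 7 shared a day. A further fit, the replicate block, therefore held each same-number pair of a deletion and its wild type as a block, leaving 5 residual degrees of freedom. Between the wild types the block was the replicate number alone, leaving 7. On simulated data, with no day effect, the fits recovered 69%, 58%, 22% and 62% of 100 changes of 2-fold and 100%, 99%, 90% and 100% of 100 changes of 4-fold among 6492 probe sets, in the order H3del, H4del, their difference, wild types.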

Additional observations from a re-analysis of the deposited data

Results flagged for a closer look

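FIT1 was set apart because the effects of the tail deletions differed by a test of the difference itself (adjusted p = 0.0419 in limma). The H3del effect was 1.08 above the H4del effect on the log2 scale. This call was lost in 10 of the 14 fits without 1 array and after quantile normalization.

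Each group of 4 arrays was searched for an array far from the rest, in 20 sets of values. About 1 in 20 such sets is picked out by chance. ARN1 on H3WT replicate 4 was 400.0, the lowest of H3WT, with a gap to the next array of 0.888 of the group's range on the log2 scale. FET3 on H3del replicate 1 was 3401.7, the lowest of H3del, with a gap of 0.944 of a narrow range on the same scale.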

How the results depend on the processing

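In H3del 4 members rose and 1 fell under each alternative but these: 2 rose with a filter at the 50th percentile, which FIT1 and FRE2 did not pass, and 3 to 4 rose and 1 fell over the fits without 1 array. The H3del sizes of FIT1 and FRE2 depend on the processing. They were 1.01 and 0.93 (adjusted p = 0.0348 for FRE2 in limma) after quantile normalization, and 0.98 and 0.95 with the high offset (82.9). FIT3, SIT1 and MRS4 had 1.49, 1.09 and -0.97, and 1.37, 1.0 and -0.81, in the same fits. In H4del 0 rose and 0 fell, 1 rose and 2 fell with the day block and with the replicate block, and 0 to 1 rose and 0 to 2 fell without 1 array. For the difference 1 was above 0 and 0 below. With the stricter filter and with quantile normalization 0 were above, and with the low offset (0.9), quantile normalization, the day block, the replicate block and no trend 1, MRS4, was below. Without 1 array 0 to 2 were above and 0 to 1 below. For the wild types no member passed, except 1 lower with the replicate block, and none without 1 array.

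Values near 0 changed sign, none of them past the threshold: in H4del ARN1 (0.02) and ARN2 (0.09) after quantile normalization, and 0.09 and 0.04 without H4WT replicate 1 (over the fits without 1 array -0.29 to 0.09 and -0.18 to 0.04). Between the wild types SIT1 was -0.17 with the day block, FIT2 0.01 (-0.47 to 0.01) and MRS4 -0.03 (-0.03 to 0.24) without H3WT replicate 3, FIT3 0.01 (-0.41 to 0.01) without H4WT replicate 3, and FTR1 0.06 and 0.07 (-0.27 to 0.07) without H3WT replicate 4 and H4WT replicate 1. The cause was not tested. The blocks changed no other call of a member. Over all probe sets H3del had 498 calls, 1338 with the day block and 1047 with the replicate block, H4del 1134, 1933 and 2130, the difference 239, 1078 and 1056, and the wild types 221, 247 and 511. Without 1 array these totals ran from 330 to 480, 580 to 1492, 117 to 466 and 137 to 304, so the shares over all probe sets move with single arrays: H4del had 665 and 580 calls without H4WT replicates 1 and 2 and 669 and 654 without H4del replicates 1 and 2. H3del had 330 without H3del replicate 1, and the wild types 137 and 138 without H4WT replicates 1 and 2. The difference had 137, 131 and 157 without H3del replicates 1, 2 and 4, 125 and 117 without H4del replicates 1 and 2, and 135, 131 and 466 without H4WT replicates 1, 2 and 3. A filter at the 50th percentile left 250 and 135 calls for H3del and the wild types, and quantile normalization gave 365 for the difference.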
